A study of Mus musculus with 8 samples.

Results

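The circadian clock genes considered were Per1, Per2, Per3, Cry1, Cry2, Arntl (Bmal1), Clock, Nr1d1, Nr1d2 and Dbp, and 1 of these 10 genes, Per2, was in the 1933 gene rows analysed. The set was selected on an earlier reading of these libraries, in which Per2 was lower in the knockout, so the Per2 values below describe that contrast and are given with no test. The rows lie on chromosome 1 wherever they could be placed, and Per2 is the only gene of the set there. Per1, Per3, Cry1, Cry2, Arntl, Clock, Nr1d1, Nr1d2 and Dbp were not analysed here, so the phase of the clock cannot be read from these data.

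The circadian clock is a feedback loop of transcription that runs in most cells of the body, those of the liver included. CLOCK and ARNTL form the activating arm and drive the Per and Cry genes through E-box elements, and PER and CRY proteins accumulate, enter the nucleus and repress that drive. Nr1d1 and Nr1d2 encode the REV-ERB receptors, which repress Arntl in a second loop, and Dbp is an output of the activators. Per2 is both a repressor of the loop and a gene that answers to outside signals, through cAMP and glucocorticoid pathways among others. Its transcript level follows the time of day, and the labels give no time at which livers were taken.

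RNA was sequenced from cells labelled as hepatic stellate cells, which store vitamin A in the liver and can turn into matrix-producing myofibroblasts. The mice were males with steatohepatitis (MASH) brought on by diet. The mutant libraries came from AREL1HSC-KO mice (KO, n = 4), labelled as lacking the ubiquitin ligase AREL1 in stellate cells, and the controls from floxed AREL1fl/fl mice (fl/fl, n = 4). All mice ate a Western diet with 21% fat from 4 weeks of age for 20 weeks, and were analysed in week 24. The labels name no Cre driver and do not say whether each library is a separate mouse, so the spread between libraries may be technical. Beyond counting error, that spread was 2.53% over the genes tested (edgeR common biological coefficient of variation). Its source was not tested. In 3 KO libraries the genotype label carries another digit after AREL than the title, which was followed. The names of the deposited files use ctrl and Sg where the labels give fl/fl and HSC-KO, and the groups were taken from the titles. Whether both sets of names describe the same design was not checked. Arel1 itself was not analysed here, and the deletion was not checked.

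Gene-assigned reads numbered 19271004 to 25165289 in KO libraries and 17619387 to 19663030 in fl/fl libraries. None of the 13 stellate markers listed was in the rows, so the labelled cell type was not checked either. Of 64 markers of stellate and other cells, 5 were present. Their summed level was 87.49 to 90.85 CPM in KO and 82.79 to 89.33 CPM in fl/fl, nearly all of it Cd34, and Pkhd1 and Cd247 stood at 0 in most libraries. CPM here is the count of a gene scaled to 1000000 gene-assigned reads of the library, after TMM scaling. The fl/fl replicate 4 library stood apart from its group, at 3.37 to 3.47 when the chi-square of its counts against each other fl/fl library was divided by the degrees of freedom; the same ratio was 1.39 to 1.86 among the other 3. Unmapped reads made up 1.517% ± 0.0557 of KO libraries and 1.139% ± 0.0701 of fl/fl libraries (SD, n = 4 each; two-sided exact permutation p = 0.0286, the smallest that 4 against 4 allows, and 0.0715 after adjustment over 5 measures). Reads outside annotated features made up 4.052% ± 0.101 in KO and 4.32% ± 0.0188 in fl/fl, and the groups did not overlap here either (SD, n = 4 each; two-sided exact permutation p = 0.0286, 0.0715 after the same adjustment). Whether the read shares play a part in the Per2 values was not tested.

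Per2 (ENSMUSG00000055866) was present at a low level in every library and was lower in KO. It stood at 7.322, 6.584, 7.186 and 6.515 CPM in KO replicates 1 to 4, against 9.983, 9.062, 8.441 and 7.841 CPM in fl/fl replicates 1 to 4. The highest KO library, replicate 1, lay 0.519 CPM below the lowest fl/fl library, replicate 4, so the groups did not overlap. The group means were 6.902 ± 0.411 CPM in KO and 8.832 ± 0.915 CPM in fl/fl (SD, n = 4 each). The fitted log2 fold change of KO over fl/fl was -0.36 with an SE of 0.093, a change of -22.0% in KO. In bulk RNA of this kind, fewer cells that express Per2 and less Per2 RNA in each cell cannot be told apart.

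**Figure D1:**
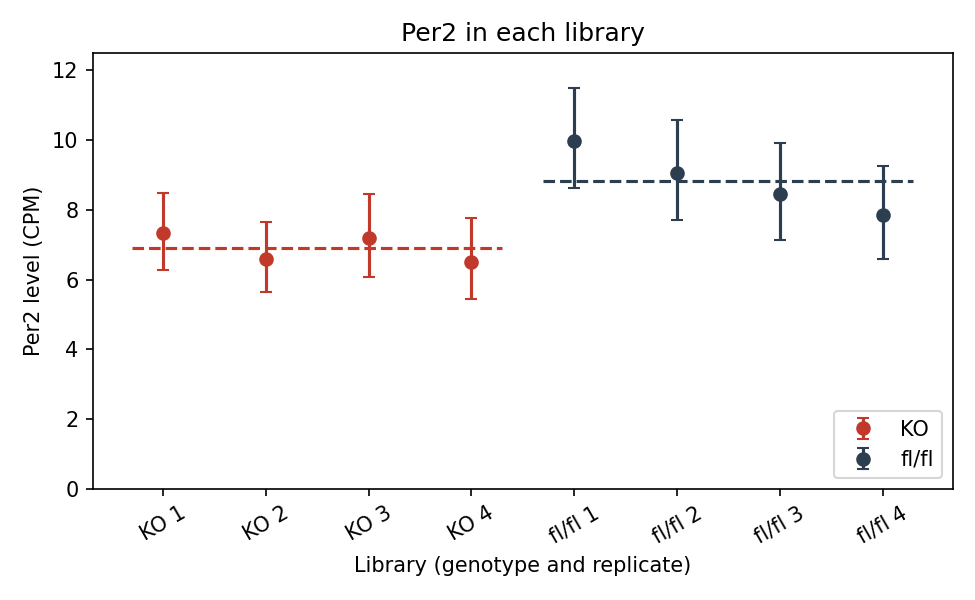
Per2 level in CPM (vertical axis, from 0) in each KO and fl/fl library (horizontal axis). Points are single libraries, bars are exact 95% Poisson intervals of the read count, and dashed lines are group means. The 4 KO libraries lie between 6.515 and 7.322 CPM and the 4 fl/fl libraries between 7.841 and 9.983 CPM.

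These levels rest on few reads. Per2 had 179, 169, 148 and 127 reads in the KO libraries, against 194, 159, 146 and 137 reads in the fl/fl libraries. At such counts a library's own 95% Poisson interval is wide, and it covers counting error only. It ran from 6.288 to 8.477 CPM in KO replicate 1 and from 6.583 to 9.269 CPM in fl/fl replicate 4, so the nearest libraries of the 2 genotypes were not separated at this depth. Counting alone gives an SD of about 8.07% of the level in KO and 7.98% in fl/fl. The SD observed between libraries was 5.96% of the mean in KO and 10.4% in fl/fl.

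With each library left out in turn, the Per2 log2 fold change was -0.41 to -0.29. The groups did not overlap, so leaving out a library could change the size of this value but not its direction. The value nearest 0 came without fl/fl replicate 1, the library with the highest Per2, and the value farthest from 0 came without fl/fl replicate 4.

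The direction was the same in forward-column and reverse-column reads. Forward and reverse reads were near equal in these libraries, so the columns split the same Per2 reads and are not a separate check. Per2 lies on the minus strand, and in GENCODE M21 (GRCm38) none of its exons shares bases with another gene. Forward-column reads made up 49.7%, 46.7%, 45.3% and 53.5% of the strand-assigned Per2 reads in KO replicates 1 to 4. The same share was 49.5%, 55.3%, 55.5% and 43.8% in fl/fl replicates 1 to 4. Every exact 95% binomial interval of these shares held an even split. The log2 fold change was -0.43 in forward-strand counts and -0.30 in reverse-strand counts.

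**Figure D2:**
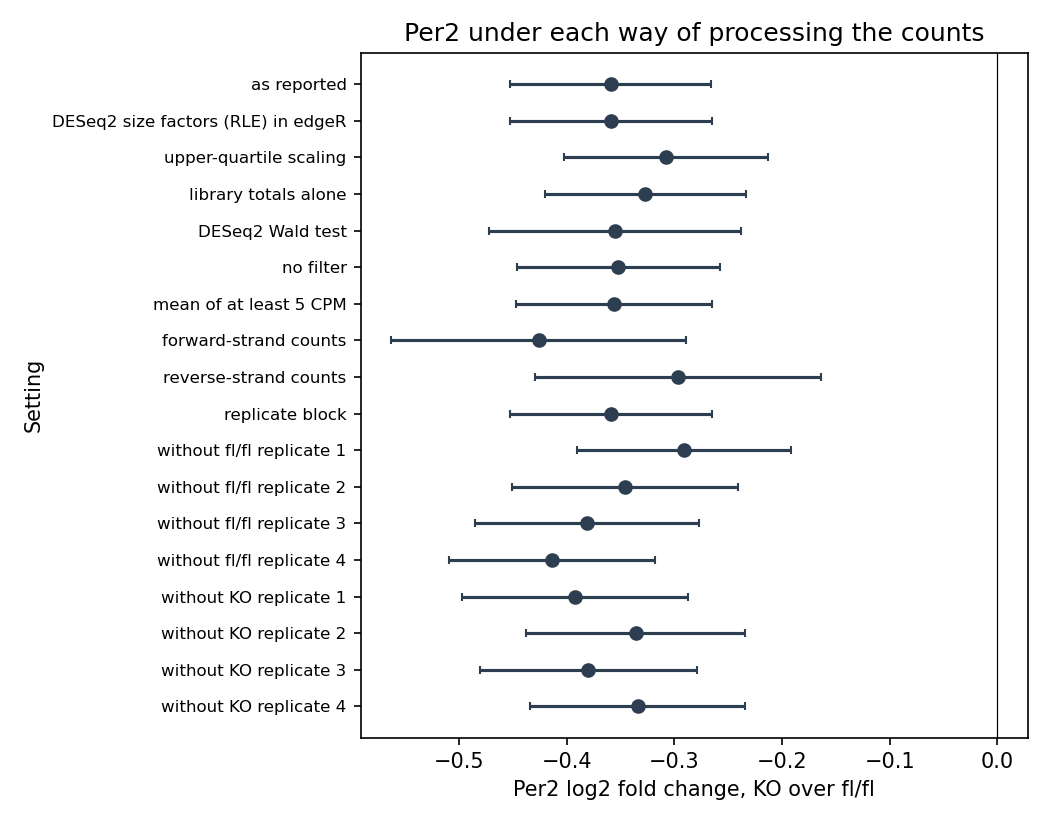
Fitted Per2 log2 fold change of KO over fl/fl (horizontal axis) under each way of processing the counts (vertical axis), with bars of 1 SE. The estimates lie between -0.43 in forward-strand counts and -0.29 without fl/fl replicate 1.

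Set against all 420 genes kept by the filter on low counts, Per2 lay toward the lower end. Its log2 fold change was the 29th lowest, and 52 genes had a larger change in either direction. The median over all genes was 0.0034, and the 5th and 95th percentiles were -0.39 and 0.39. Groups did not overlap in 31.4% of the genes, and in 16.7% of them with KO lower, so separated groups are common in these libraries. In levels per kilobase of exon, the scale on which genes can be compared, Per2 stood at 1.18 CPM per kb in KO and 1.51 CPM per kb in fl/fl. The median gene stood at 5.25 CPM per kb over all libraries, and 103 of 419 genes lay below Per2.

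**Figure D3:**
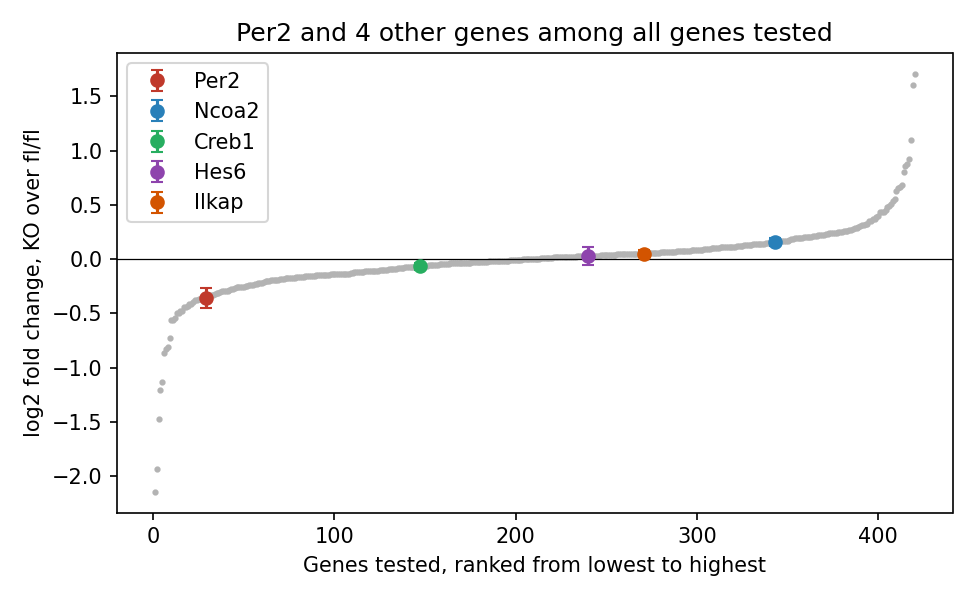
Log2 fold change of KO over fl/fl (vertical axis) of the 420 genes tested, ranked from lowest to highest (horizontal axis). Grey points are genes, and coloured points with bars of 1 SE are Per2, the clock-related genes Ncoa2 and Creb1, and the Per2 neighbours Hes6 and Ilkap. Per2 lies near the lower end at -0.36, and the other 4 lie between -0.067 and 0.16.

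Beyond the 10 clock genes, 69 genes that act on the clock or follow it were listed, and 2 of them, Ncoa2 and Creb1, were in the rows. Of this pair, 1 gene passed the test, higher in KO, where 37.6% of all genes passed and 18.3% passed with a higher level in KO. The log2 fold changes of the pair had opposite signs, 0.16 for Ncoa2 and -0.067 for Creb1. Their median of 0.047 is therefore only a midpoint and shows no shared shift. The median over all genes was 0.0034. Ncoa2 encodes a nuclear receptor coactivator that also binds at clock genes. It stood at 55.75, 52.56, 52.34 and 50.58 CPM in KO replicates 1 to 4, against 47.6, 47.59, 47.7 and 46.42 CPM in fl/fl replicates 1 to 4. All KO libraries were above all fl/fl libraries. The clock-related lists were chosen with earlier results of these data known, and the libraries may not be separate mice. Ncoa2 rose by 11.7% in KO (log2 fold change 0.16, SE 0.039, edgeR quasi-likelihood test, adjusted p = 0.00178, n = 4 libraries per group). With a library left out, Ncoa2 was 0.13 to 0.18 on that scale, and 0.15 without fl/fl replicate 4. The lowest value came without KO replicate 1, the library with the highest Ncoa2 (edgeR adjusted p = 0.014). The call was lost in reverse-strand counts, where the log2 fold change was 0.10 (edgeR adjusted p = 0.137, the highest over all alternatives, which began at 6.67e-05).

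Creb1 encodes the cAMP-responsive transcription factor through which outside signals induce Per1 and Per2. It stood at 70.48, 74.45, 75.64 and 73.87 CPM in KO replicates 1 to 4, against 78.47, 75.29, 76.31 and 78.01 CPM in fl/fl replicates 1 to 4. The groups overlapped through KO replicate 3 and fl/fl replicate 2. The means were 73.61 ± 2.22 CPM in KO and 77.02 ± 1.48 CPM in fl/fl, and the difference did not pass the test (log2 fold change -0.067, SE 0.033, edgeR adjusted p = 0.121). Its adjusted p ranged from 0.0739 to 0.734 over the alternatives.

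The genes next to Per2 on the chromosome were read as well. Hes6, a member of the hairy and enhancer of split family of transcriptional regulators, lies 1.94 kb from Per2 in GENCODE M21. Hes6 stood at 9.535 ± 0.702 CPM in KO and 9.301 ± 0.717 CPM in fl/fl (SD, n = 4 each; log2 fold change 0.029, SE 0.085, edgeR adjusted p = 0.819). Its groups overlapped widely. Ilkap, which encodes a phosphatase associated with integrin-linked kinase, lies 17.2 kb away and stood at 86.15 ± 0.684 CPM in KO and 83.1 ± 2.21 CPM in fl/fl (log2 fold change 0.052, SE 0.031, edgeR adjusted p = 0.2). Ilkap shares 357 exon bases with Erfe on the other strand, so its count is uncertain without strand. The noncoding gene 1700020N18Rik and the nearest 3 genes on the other side, Gm28381, Gm28382 and Gm19085, had 0 reads in all 8 libraries, which allows a level of up to 0.0185 CPM (3 reads over the 8 libraries, counting error only). The difference between Per2 and its neighbours was not tested.

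**Figure D4:**
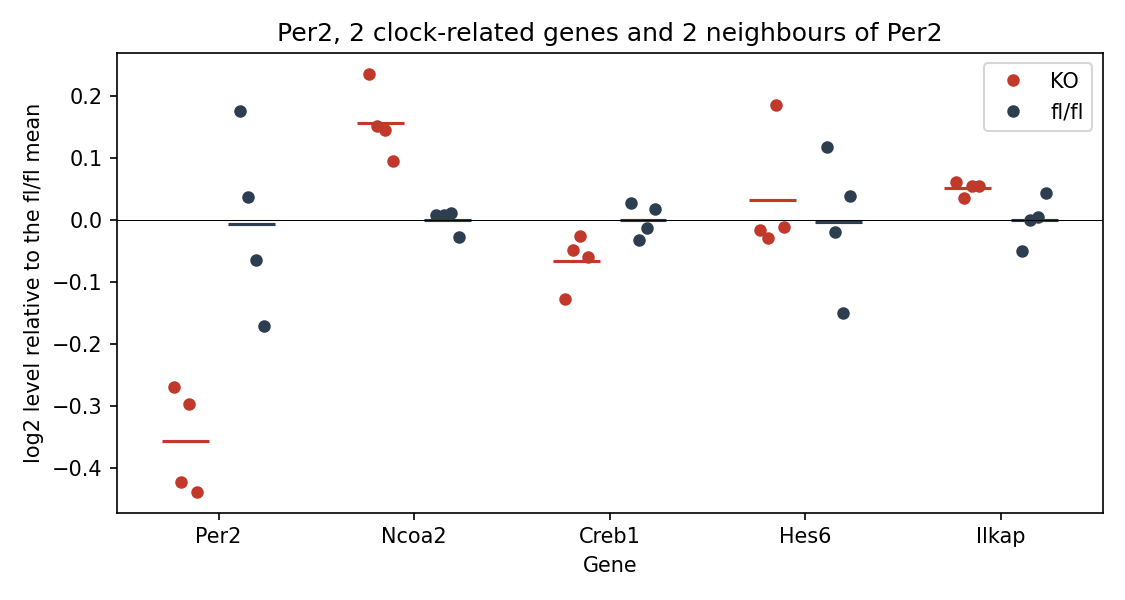
Level of each gene in each library, on a log2 scale relative to the mean of the fl/fl libraries (vertical axis), for Per2, Ncoa2, Creb1, Hes6 and Ilkap (horizontal axis). Points are libraries, KO left and fl/fl right, and short lines are means. KO libraries lie below all fl/fl libraries for Per2 and above them for Ncoa2, while the groups overlap for Creb1, Hes6 and Ilkap.

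The genes whose levels followed Per2 most closely over the 8 libraries were ranked by Pearson's r of log2(CPM + 1) among 320 genes with a mean of at least 5 CPM. All libraries share their genotype split, so a gene that differs between the genotypes gets a high r from that alone, and the ranking is a description with no test. The 6 highest were Rab7b, with an r of 0.947, Aldh9a1, with 0.942, Col6a3, with 0.92, Aox1, with 0.918, Vash2, with 0.916, and Gpc1, with 0.915. Rab7b encodes a small GTPase of endosomal traffic, Aldh9a1 an aldehyde dehydrogenase, Col6a3 a chain of collagen VI, Aox1 an aldehyde oxidase, Vash2 a vasohibin and Gpc1 a glypican of the cell surface. Spearman's rho of these genes with Per2 was 0.881 to 0.976.

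With each group centred on its own mean, r was 0.862 for Rab7b and 0.792 for Aldh9a1, and 0.625 to 0.715 for the other 4. These genes were picked by r over the same libraries, which raises the centred values too, so they are a description only. Rab7b stood at 15.26, 15.54, 16.94 and 14.72 CPM in KO replicates 1 to 4, against 21.25, 20.52, 18.04 and 16.6 CPM in fl/fl replicates 1 to 4. As for Per2, fl/fl replicate 1 was the highest and fl/fl replicate 4 the lowest of the controls. Aldh9a1 had the same highest and lowest control, at 53.67 and 46.3 CPM. Col6a3 and Aox1 were lowest among the controls in fl/fl replicate 4 too, at 16.83 and 5.781 CPM. The most opposite genes were Blzf1 (a Golgi protein gene), Mars2 (the mitochondrial methionyl-tRNA synthetase) and Rrs1 (a ribosome assembly factor), with r of -0.931, -0.929 and -0.927. After centring, r for these genes was -0.714, -0.801 and -0.725, in the same order. Gpc1 shares exon bases with Ankmy1, and Blzf1 with Nme7, on the other strand, and unstranded counts of either are uncertain for that reason.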

How the data were processed

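Poly(A) libraries of stellate cells were sequenced per the labels' protocols. The authors deposited a table of raw counts by gene per library, with 4 summary counts and 3 columns (either strand, forward, reverse). Per the submitters' processing notes, STAR 2.7.10a, fastp and DESeq2 1.38.0 were used. GRCm39 and GRCm38 are both named, so no coordinates are printed; which annotation release was counted is not given in the sources.

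The 1933 complete gene rows shared by the 8 tables were used; 1830 had a GENCODE M21 symbol, all on chromosome 1. The 1933 rows held 3.195% to 3.283% of the gene-assigned reads of a library. Library totals were derived from the summary counts (the no-feature reads in the forward and reverse columns, less 2 times the either-strand no-feature reads and less the ambiguous reads of both stranded columns). This is a lower limit, which the upper one exceeds by 2.51% to 2.65%. Forward and reverse reads were near equal (ratio 0.985 to 1.02), so the either-strand counts were used.

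KO and fl/fl were compared with edgeR 4.0.16 in R 4.3.3 (filterByExpr, 420 genes; TMM; robust quasi-likelihood F test; Benjamini-Hochberg over the 420; threshold 0.05), with 158 genes passing. The SE comes from the F statistic. DESeq2 1.42.0, other scalings, filters, strand columns, a replicate block, leaving out each library and a threshold of 0.01 were alternatives. No pair of libraries within a group agreed within sampling noise (largest chi-square p = 3.68e-07 over 12 pairs).

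The clock genes, the related lists and the rule for named genes were chosen with earlier results of these data known. The rule takes the clock genes found, listed clock-related genes, the 3 nearest genes on either side of Per2, and the 6 genes most like Per2 and the 3 least like it.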

Additional observations from a re-analysis of the deposited data

Results flagged for a closer look

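Libraries below lay farther from the rest of their group of 4 than Dixon's 95% critical value allows, which chance gives in about 1 in 20 groups of 4, or 2.1 of the 42 groups looked at; the groups are not independent. Per2 was not among the 6 found. Ncoa2 in fl/fl replicate 4 stood at 46.42 CPM, below the other fl/fl libraries at 47.59 to 47.7 CPM. Hes6 in KO replicate 3 stood at 10.58 CPM, above the other KO libraries at 9.117 to 9.234 CPM. In fl/fl replicate 4, Col6a3 stood at 16.83 CPM and Aox1 at 5.781 CPM, against 22.28 to 22.86 CPM and 8.788 to 9.365 CPM in the other fl/fl libraries. In fl/fl replicate 1, the stromal and endothelial marker Cd34 stood at 86.24 CPM, against 79.38 to 80.53 CPM, and the gene-assigned reads numbered 19663030, against 17619387 to 17642249.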

How the results depend on the processing

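The Per2 log2 fold change of -0.36 stayed between -0.43 and -0.30 over 9 other scalings, tests, filters, strand columns and the replicate block. It lay between -0.41 and -0.29 with each library left out. The SD between replicates was 0.12 on the log2 scale. All settings reuse the same reads, and leaving out 1 library moves a group mean too little to reach that SD. The ranges are therefore no independent check of Per2. The count of 158 genes was 120 to 172 over 9 alternatives at the same threshold (120 with forward-strand counts), 132 to 191 with a library left out, and 108 at the stricter threshold of adjusted p under 0.01. The share of these that were higher in KO was 48.7%, against 69.8% with upper-quartile scaling and 60.6% with library totals alone. Of Ncoa2 and Creb1, 1 was called, but 0 in reverse-strand counts; the cause was not tested. Of the 6 genes most like Per2, 3 were also among the 6 highest by Spearman's rho and 2 after centring on group means. Same-numbered KO and fl/fl libraries had correlations of -0.18, 0.062, -0.15 and -0.091 in their deviations from the group means. Differently numbered libraries were not compared and counting noise was not removed, so these values do not settle whether replicate numbers pair the libraries. The replicate block gave 150 genes and a Per2 log2 fold change of -0.36. The low Per2 counts, 127 to 194 reads per library, limit its precision.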
